A study of Homo sapiens with 6 samples.

Results

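The genes described here encode the histones that are made in bulk while DNA is copied. They were found by symbol, as rows whose name begins with H1-1 to H1-6, H2AC, H2BC, H3C or H4C. Of the 60612 genes in the table, 83 matched. An older style of symbol was looked for first and matched 0 rows. The 83 hold 66 protein-coding genes of the replication-dependent clusters, 15 pseudogenes, and 2 rows on chromosome 3, H1-10 and H1-10-AS1, that match by their letters. H1-10 encodes a linker histone made outside S phase, and H1-10-AS1 is its antisense neighbour. By family, the 66 coding genes are 6 of H1, 16 of H2A, 17 of H2B, 13 of H3 and 14 of H4. On GRCh38, 53 of them lie in chr6:25726132-27893843 and 11 in chr1:149782689-149887916, by GENCODE 29, and the other 2, H3C2 and H3C3, are not in that release.

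The libraries came from ARPE-19, an established line of human retinal pigment epithelium. There are 3 libraries of cells transfected with miR-204-5p, a microRNA made at high levels in that tissue, and 3 of cells transfected with miR-NC, the control. The series was made to look for targets of miR-204-5p, and its title names oxidative stress in myopia. All 6 libraries were made from RNA that had been bound to oligo(dT) beads, so they favour RNA with a poly(A) tail, and the replicates are described as biological.

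Core histones H2A, H2B, H3 and H4 form the spool on which DNA is wound, and H1 histones bind the linker DNA between spools. The clustered genes are copied in S phase under the coactivator NPAT. Their messages have no introns and are the messenger RNAs known to end without a poly(A) tail, at a stem-loop bound by SLBP and cut by a complex that holds the U7 small nuclear RNA. Some of these genes also make a longer, polyadenylated message in cells that differentiate or leave the cycle. Replacement variants such as H3-3B and H2AZ1 lie elsewhere, carry ordinary poly(A) tails and are made throughout the cycle.

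The stem-loop is the feature that sets how these messages end, so it is shown first, for members with the higher levels and 1 or more of each core family. Each line is the RNA strand as DNA letters, 5′ to 3′, from GENCODE 29 transcripts (GRCh38), with the 2 stem arms in capitals, the loop of 4 bases between them and 5 bases of flank on each side.
H2AC18: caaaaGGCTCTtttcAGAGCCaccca
H2AC6: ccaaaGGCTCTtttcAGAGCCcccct
H2BC21: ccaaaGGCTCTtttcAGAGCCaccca
H2BC5: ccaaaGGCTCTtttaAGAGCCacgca
H3C6: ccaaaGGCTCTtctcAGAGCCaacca
H4C8: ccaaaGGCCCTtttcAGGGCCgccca
H4C9: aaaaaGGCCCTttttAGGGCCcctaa
The same gene order gives the positions of the 16 bases of stem and loop as chr1:149842223-149842238 (minus strand), chr6:26124669-26124684 (plus), chr1:149886188-149886203 (minus), chr6:26158587-26158602 (plus), chr6:26225596-26225611 (plus), chr6:26285131-26285146 (minus) and chr6:27139654-27139669 (plus). A stem-loop of this form was found in an annotated transcript of 30 of the 81 histone rows that are in GENCODE 29, against 160 of all 58676 annotated genes (0.273%). The stem arms differ by family. All 7 H4 genes with a match carry GGCCCT and AGGGCC, while the other coding families carry GGCTCT, in most cases paired with AGAGCC. The most frequent core, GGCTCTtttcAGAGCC, stands in 15 rows of H2A, H2B and H3.

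The transfected microRNA is shown because its seed, bases 2 to 8 in capitals, is what pairs with a target (RefSeq, GRCh38.p14, chr9:70810031-70810052, minus strand).
hsa-miR-204-5p: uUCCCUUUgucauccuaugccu
The complement of the seed, AAAGGGA, was present in the annotated 3′ UTR of 2 of the 33 members that have one, H2BC15 and H2BC9. Of all 19145 genes with an annotated 3′ UTR, 17.3% held it, and the UTRs were longer (median 1103 bases, against 569 in the members). Among the 6134 genes with a UTR no longer than the members' median the share was 3.03%. The UTRs of H2BC15 and H2BC9 are longer than that limit, at 3575 and 1679 bases, so this share is not a match for their count. H2BC15 had a mean level of 0.371 FPKM over the 6 libraries and H2BC9 of 0.00341 FPKM, both too low for the test. The mature microRNA itself was not measured in these libraries.

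Before the results, 1 library has to be set apart. RNAs that normally carry no poly(A) tail were far higher in miR-204-5p replicate 3 than in the other 5 libraries. RN7SL1, the RNA of the signal recognition particle, was at 1048 FPKM there and at 52.4 to 92.8 elsewhere. RN7SK, which holds back transcription elongation, was at 361 FPKM against 5.24 to 14.5, and RMRP, the RNA of a nuclease that processes ribosomal RNA, at 323 against 1.61 to 8.18. RN7SL2, a second RNA of the signal recognition particle, was at 950 FPKM against 2.09 to 38.7. Of 12 such RNAs that reached 1 FPKM in some library, 10 were highest in that library. RNU4-2 and SCARNA7 reached 1 FPKM only there, so their entry into this count depended on that library. Among the 9 that passed the filter of the test, 8 were highest there, against 13.0% of all genes tested. Of the 9 that passed the filter of the test 8 were higher and 1 lower in miR-204-5p, with a median log2 fold change of 1.23 and 0 past the adjusted threshold. Their part in the results was not tested.

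Depth was rough, the equivalent of 18900000 to 23300000 read pairs per library, so that 1 FPKM in a message of 0.5 kb rests on about 9.5 to 11.7 pairs. As to the cells, KRT18 and KRT8, the keratins of simple epithelia, averaged 219 and 140.1 FPKM, OTX2, an identity factor of the pigment epithelium, 7.31, and RDH5, a visual cycle enzyme, 5.64. RPE65, the visual cycle isomerase, was at 0.0134 FPKM, and TYR and TTR, of pigment synthesis and thyroid hormone transport, were at or near 0. Of the 16 pigment epithelium markers 9 passed the filter, 5 higher and 4 lower in miR-204-5p with 0 past the threshold. Of the 12 markers of other cell types only CD68, of macrophage lysosomes, passed the filter, and their summed level was 25.6 to 40.8 FPKM across libraries with both extremes in the miR-204-5p group.

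Most histone genes gave little signal. The test needed an FPKM (fragments per kilobase of a transcript, relative to library depth) of at least 0.5 in at least 3 libraries, and 23 of the 83 rows passed, namely 20 coding genes, the pseudogenes H2BC19P and H2BC20P, and H1-10. A further 43 rows had some value but did not pass, and 17 were at 0 in every library, 9 of them coding. By family, 1 of 6 H1, 5 of 16 H2A, 6 of 17 H2B, 2 of 13 H3 and 6 of 14 H4 genes passed. A gene with a high level in 1 or 2 libraries cannot pass this filter, and such genes are described separately.

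**Figure D1:**
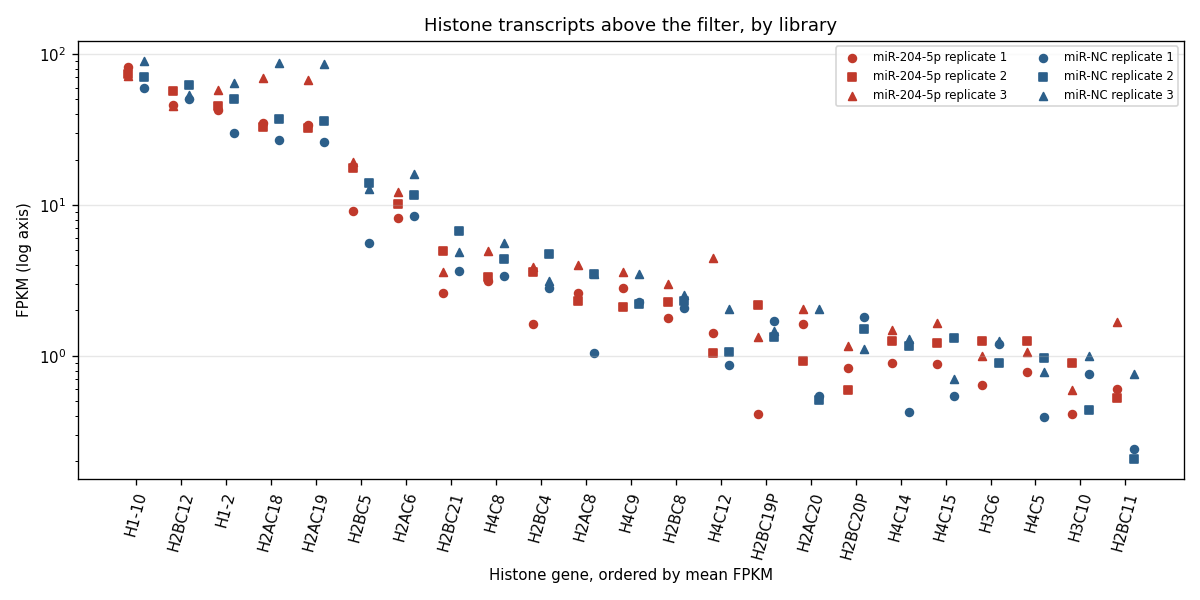
FPKM (log axis) of the 23 histone rows above the filter in each library, ordered by mean FPKM; red marks are miR-204-5p, blue marks miR-NC, and the marker shape gives the replicate number. The groups overlap for every row, and the triangles of the replicate 3 libraries lie at the top for most of them.

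The level was held by a handful of genes. Over the 66 coding genes the summed level was 203, 225 and 326 FPKM in miR-204-5p replicates 1 to 3 and 173, 246 and 357 FPKM in miR-NC replicates 1 to 3. This was 0.0546% to 0.105% of the FPKM of a library. The 4 highest coding genes, H2BC12, H1-2, H2AC18 and H2AC19, held 76.7% of the mean sum, and 6 coding genes had a mean over 10 FPKM. H1-10, outside the clusters, was the highest single row. By family, the mean sum in the miR-204-5p group was 49.5 ± 8.51 FPKM for H1, 108 ± 45.3 for H2A, 75.9 ± 12.2 for H2B, 3.92 ± 2.03 for H3 and 14.5 ± 6.23 for H4 (SD, n = 3). The miR-NC group had 48.7 ± 17.2, 117 ± 70.3, 78.2 ± 13.1, 2.79 ± 0.928 and 11.8 ± 2.59 FPKM in the same order. In both groups the sums of H2A and H2B exceeded those of H3 and H4 several-fold. The H2A sum and the share of the 4 highest genes count both H2AC18 and H2AC19, copies whose reads cannot be told apart. The libraries favour RNA with a poly(A) tail, so these sums do not show how much histone message each family supplied.

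No histone gene passed the test between the groups. In the limma test with Benjamini-Hochberg adjustment over the 13151 genes tested, 0 of 23 members passed an adjusted p of 0.05, and the share over all genes was 0%. At an unadjusted p under 0.05 the members gave 0 and all genes 273 (2.08%). Values of the groups lay fully apart for 0 members and for 782 of all genes (5.95%). The members split into 12 higher and 11 lower in miR-204-5p, with a median log2 fold change of 0.01 on the log2(FPKM + 1) scale; over all genes the median was -0.02 and 46.9% were higher. None of the 83 rows was marked significant in the authors' deposited table, against 194 of 60612 genes (0.32%), and the smallest p of a member there was 0.147. In bulk RNA, fewer cells in S phase and less histone RNA per such cell cannot be told apart.

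**Figure D2:**
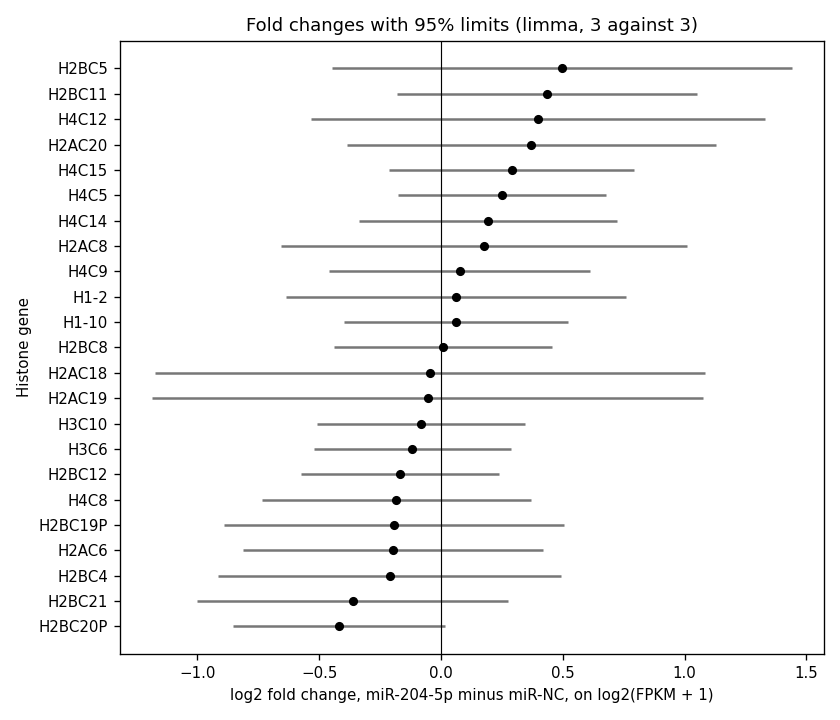
log2 fold change of each tested histone row, positive where miR-204-5p is higher, on log2(FPKM + 1), as a point with its 95% limits from limma (3 libraries against 3). Every interval holds 0, and the limits span -1.19 to 1.44.

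The intervals set how much the test could have missed. Across the 23 rows the 95% limits ran from -1.19 to 1.44 on the log2(FPKM + 1) scale. Among rows of high level, a change by a factor of 2 lay inside the interval for some and outside it for others. The widest intervals were those of H2AC18 and H2AC19, which held it, and H2BC12 had a narrow one, from -0.57 to 0.24. For low rows this scale understates a change in FPKM, so their limits do not show whether a factor of 2 was excluded. The adjusted p (limma, Benjamini-Hochberg) was 0.9999 or more for every member.

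H1 histones fasten the linker DNA and compact chromatin. H1-2 was the only clustered H1 gene above the filter. Its level was 42.5, 45.6 and 57.3 FPKM in miR-204-5p replicates 1 to 3 and 29.8, 50.6 and 64.3 FPKM in miR-NC replicates 1 to 3. In both groups replicate 1 was lowest and replicate 3 highest, and the groups overlapped; the log2 fold change was 0.06 and its limits were -0.63 and 0.76. H1-10 stood at 82.4, 73.5 and 71.7 FPKM against 59.5, 70.7 and 90.6 FPKM. Here the control library of replicate 3 was highest and that of replicate 1 lowest, with the treated libraries between them. The H1-10 row (chr3:129314771-129316277, minus strand) overlaps H1-10-AS1 (chr3:129315392-129326225, plus strand), which had a mean of 0.318 FPKM. The libraries marked strand, but the sources used here do not say whether the authors' counting used it, so reads of this pair may not be separated.

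H2A is the core histone that pairs with H2B. H2AC18 and H2AC19 are 2 copies on chromosome 1 (chr1:149842188-149842736, minus strand, and chr1:149851061-149851624, plus strand) whose annotated transcripts share all 549 bases of the shorter. H2AC18 was at 34.9, 33.0 and 69.1 FPKM in miR-204-5p replicates 1 to 3 and at 26.9, 37.0 and 87.7 in miR-NC replicates 1 to 3. H2AC19 gave 33.8, 32.2 and 67.2 FPKM against 26.3, 36.1 and 86.1, a ratio of H2AC18 to H2AC19 of 1.02 to 1.03 in every library. Reads of these copies cannot be assigned to either, so the pair is best read as 1 measurement. Both replicate 3 libraries stood well above the other 4, and the groups overlapped; the log2 fold change of H2AC18 was -0.05, with limits of -1.17 and 1.08.

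H2AC6, listed among the genes known for a polyadenylated form, was at 8.15, 10.1 and 12.2 FPKM against 8.41, 11.7 and 15.9 FPKM. Replicate 3 was the highest library and replicate 1 the lowest in each group, and the groups overlapped. H2AC8 was at 2.59, 2.30 and 4.01 FPKM against 1.04, 3.48 and 3.49 FPKM, and miR-NC replicate 1 was the low library. H2AC20 was at 1.62, 0.928 and 2.04 FPKM against 0.543, 0.507 and 2.05 FPKM. For H2AC20 both replicate 3 libraries were again at the top, and the log2 fold change of 0.37 had limits of -0.39 to 1.13.

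H2B pairs with H2A, and 6 of its genes were above the filter, as many as of H4. H2BC12, the highest coding gene of the clusters, was at 45.8, 56.8 and 45.2 FPKM in miR-204-5p replicates 1 to 3 and at 50.1, 62.4 and 53.7 FPKM in miR-NC replicates 1 to 3. Replicate 2 was the highest library in both groups, and the log2 fold change was -0.17. H2BC5 was at 9.06, 17.5 and 19.3 FPKM against 5.57, 13.9 and 12.7 FPKM, with both replicate 1 libraries low. Its log2 fold change was 0.50, with limits of -0.45 to 1.44 that hold 0.

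H2BC21 was at 2.60, 4.99 and 3.60 FPKM against 3.68, 6.68 and 4.85 FPKM. Its log2 fold change was -0.36, and the upper limit was 0.28. H2BC4 was at 1.62, 3.57 and 3.86 FPKM against 2.80, 4.77 and 3.11 FPKM. H2BC8 was at 1.79, 2.27 and 2.98 FPKM against 2.06, 2.31 and 2.52 FPKM. The groups of all 3 genes overlapped, and the difference for H2BC8 was 0.01. H2BC11 was at 0.606, 0.525 and 1.67 FPKM against 0.241, 0.208 and 0.756 FPKM. It had the smallest unadjusted p among the members that were higher in miR-204-5p, 0.137 by limma, with a log2 fold change of 0.44, and did not pass the adjustment. With a pseudocount of 0.1 in place of 1 its fold change was 1.04, and on leaving out each library it ran from 0.18 to 0.61.

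The 2 pseudogenes above the filter are H2B-like rows between the H2AC18 and H2AC19 genes. H2BC19P (chr1:149842875-149846486, plus strand) overlaps H2BC20P (chr1:149844498-149850937, minus strand). Whether the authors' counting used the strand is not given, so reads of this pair may not be separated. H2BC20P was at 0.835, 0.593 and 1.16 FPKM in miR-204-5p and 1.82, 1.52 and 1.12 FPKM in miR-NC. It had the smallest unadjusted p of all members, 0.0578 by limma, and a log2 fold change of -0.42 with limits of -0.85 to 0.02, which was -0.74 with a pseudocount of 0.1. One treated library lay above the lowest control library, so the groups overlapped. H2BC19P was at 0.411, 2.16 and 1.34 FPKM against 1.70, 1.34 and 1.47 FPKM, with 1 low library, miR-204-5p replicate 1.

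H3 and H4 form the tetramer at the centre of the nucleosome. H4C8 was at 3.14, 3.33 and 4.95 FPKM in miR-204-5p replicates 1 to 3 and at 3.38, 4.40 and 5.60 FPKM in miR-NC replicates 1 to 3, with replicate 3 the highest in each group. H4C9 was at 2.83, 2.12 and 3.60 FPKM against 2.26, 2.20 and 3.48 FPKM. H4C12 was at 1.41, 1.05 and 4.43 FPKM against 0.872, 1.06 and 2.04 FPKM. Its model is the coding sequence alone, which is identical to that of H4C11, so reads of this pair may not be separated. H4C11, below the filter, was at 1.35 FPKM in miR-204-5p replicate 3 and at 0 to 0.225 in the other libraries. Replicate 3 of each group was the highest library for both H4C9 and H4C12, and the log2 fold change of H4C12, 0.40 with all libraries, was -0.03 without miR-204-5p replicate 3.

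The remaining 5 genes lay near 1 FPKM. Their longest models run from 1237 bases for H3C10 to 2679 bases for H3C6. Such a value therefore rests on more read pairs than the 9.5 to 11.7 given for a message of 0.5 kb. H4C14 was at 0.901, 1.25 and 1.48 FPKM against 0.428, 1.17 and 1.298, and H4C15, whose coding sequence is identical, at 0.888, 1.22 and 1.65 against 0.540, 1.32 and 0.706 FPKM. H4C5 was at 0.783, 1.25 and 1.07 FPKM against 0.393, 0.972 and 0.786 FPKM. For these H4 genes miR-NC replicate 1 was the lowest library. H3C6 was at 0.643, 1.26 and 0.998 FPKM against 1.20, 0.903 and 1.26, and H3C10 at 0.409, 0.895 and 0.594 against 0.762, 0.438 and 0.993 FPKM. All 5 overlapped between groups, with log2 fold changes of -0.12 for H3C6 to 0.29 for H4C15.

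Values of single genes are uncertain for a further reason. The coding sequences of 18 tested core histone genes were at least 86.0% identical to that of their closest relative of equal length among the members, with a median of 92.7%. H2AC20, also tested, was not compared, since only sequences of equal length were. The sources used here do not say how the authors' counting divided reads that match several copies. Levels of relatives may therefore include each other's reads.

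Most histone members were highest in the replicate 3 libraries of both groups. Of the 23 tested members, 17 (73.9%) had their highest value in a replicate 3 library, 8 in that of miR-204-5p and 9 in that of miR-NC, while 24.3% of all genes tested did. Both H2AC18 and H2AC19 are among the 9, although they are best read as 1 measurement. Other relatives may share reads too, so the members are not independent. The median deviation of the members from their own means over the 6 libraries was 0.27 in miR-204-5p replicate 3 and 0.16 in miR-NC replicate 3 on the log2 scale, and -0.22 and -0.33 in the replicate 1 libraries. Over all genes tested the same medians were -0.09, -0.10, 0.01 and 0.09. The histone rows thus lay on the other side of 0 from the typical gene in those 4 libraries.

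**Figure D3:**
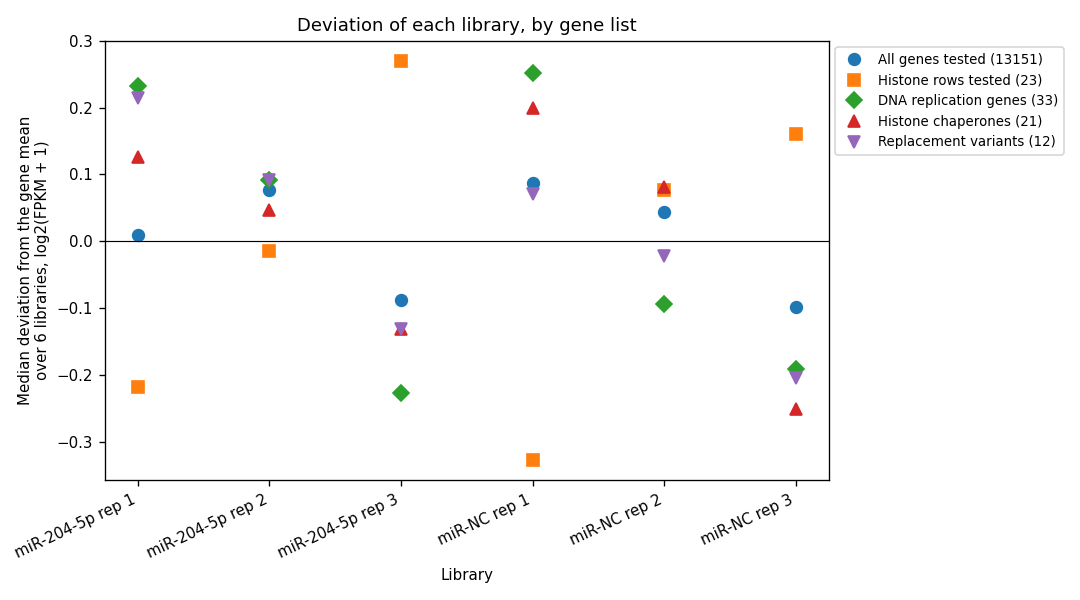
Median deviation of each gene list in each library from the gene's mean over the 6 libraries, on the log2(FPKM + 1) scale; the number of genes is given in the legend. The histone rows are at 0.27 and 0.16 in the replicate 3 libraries, where the DNA replication genes are at -0.23 and -0.19. H1-10 is in both the histone rows and the replacement variants.

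Genes of DNA replication, which share the S phase of the histone genes, stood on the opposite side. Of 33 replication genes tested, 0 had their highest value in a replicate 3 library, and their median deviation was -0.23 in that of miR-204-5p and -0.19 in that of miR-NC. In the replicate 1 libraries it was 0.23 and 0.25. The histone chaperones, which carry new histones to DNA, had 1 of 21 highest in a replicate 3 library and the replacement variants 2 of 12. H1-10, highest in miR-NC replicate 3, is counted both among these variants and among the tested histone rows, so the sets overlap. The summed level of the RNAs without poly(A) tails was 2844 FPKM in miR-204-5p replicate 3 and 168 FPKM in miR-NC replicate 3, against 94.3 to 129 FPKM in the other 4 libraries. Among those RNAs that passed the filter, RN7SL1, RN7SL2 and RPPH1 were higher in miR-NC replicate 3 than in those 4, at 92.8, 38.7 and 10.8 FPKM. RN7SK, RMRP, SNORD3A, RNU1-1, RNU4-1 and RNU5A-1 were not. RN7SK was at 13.9 FPKM there and 14.5 in miR-204-5p replicate 1, and SNORD3A at 1.40 and 4.27 in the same libraries. The part of these RNAs in the histone pattern was not tested.

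The low histone genes moved with 1 library. In the 46 coding genes below the filter the summed level was 6.97, 3.32 and 18.5 FPKM in miR-204-5p replicates 1 to 3 and 6.03, 3.45 and 3.91 FPKM in miR-NC replicates 1 to 3. Replicate 3 of miR-204-5p was 2.65 times the highest of the other 5 libraries. The group means were 9.59 ± 7.91 and 4.46 ± 1.37 FPKM (SD, n = 3), and without that library the miR-204-5p mean was 5.14 FPKM over 2 libraries.

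**Figure D4:**
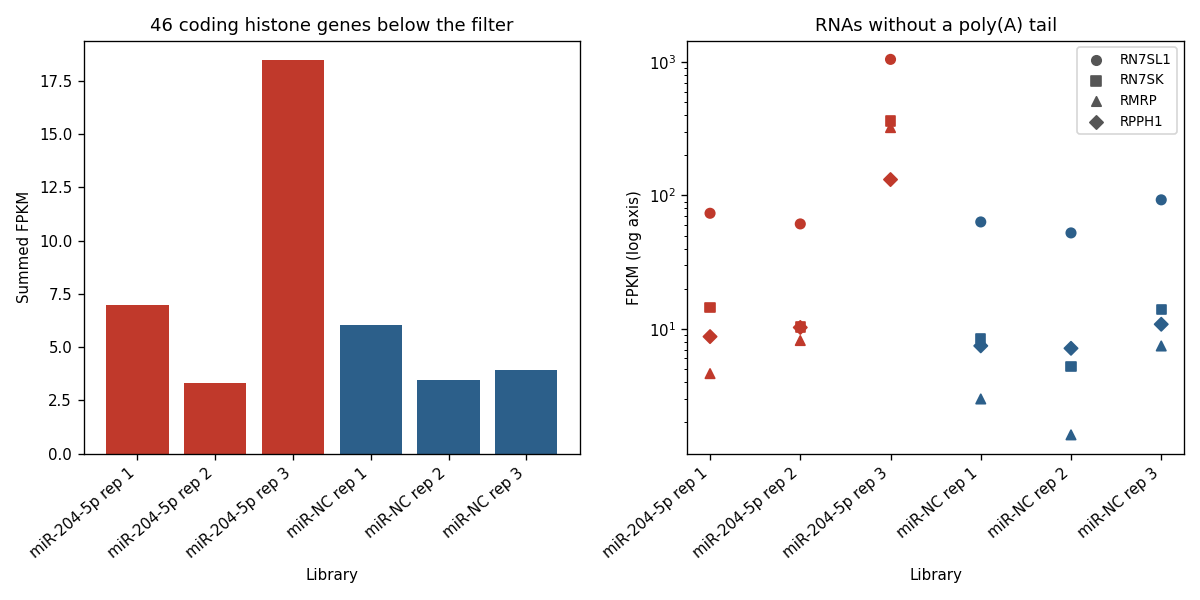
Left, summed FPKM of the 46 coding histone genes below the filter in each library, as bars from 0; right, FPKM (log axis) of 4 RNAs without a poly(A) tail in the same libraries. Red is miR-204-5p and blue miR-NC, and replicate 3 of miR-204-5p is the highest library in both panels, at 18.5 FPKM on the left and 1048 FPKM for RN7SL1 on the right.

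Of the 37 low coding genes with any value, 24 were highest in miR-204-5p replicate 3. Counting pseudogenes and H1-10-AS1, 26 of 43 were (60.5%), against 16.2% of all genes below the filter with a value. In that library 13 of the 46 reached 0.5 FPKM, and in the other 5 libraries 0 to 3 did. The 5 highest of these genes are H1-4, H4C4, H3C3, H3C4 and H2AC7. H1-4, a linker histone, was at 0.927, 0.0430 and 1.76 FPKM against 0.316, 0.420 and 0.230. H3C3 was at 0.357, 0.0981 and 2.05 FPKM against 0.295, 0 and 0.0989, and H4C4 at 0, 0.118 and 1.79 against 0.334, 0.728 and 0.118 FPKM. In these 3 genes miR-204-5p replicate 3 was the highest library. H3C4 reached 1.05 FPKM in miR-204-5p replicate 3 and 0.102 to 0.753 in the others. H2AC7 departed from this, with its highest value, 1.07 FPKM, in miR-NC replicate 3. Values this low rest on few reads, and the part of the RNA without poly(A) tails in them was not tested.

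The annotated ends of the messages were set beside these levels. Among coding genes, 20 had a transcript model that reached at least 100 bases past the stem-loop, 8 had models that ended closer to it, 36 had no stem-loop in any model, and 2 were not in GENCODE 29. The median of the mean levels was 0.778 FPKM, 1.57 FPKM and 0.0785 FPKM for the first 3 classes. Above the filter were 11, 4 and 5 genes of these classes, and all 9 coding genes at 0 in every library were among the 36. Of the 36, 24 have models that hold the coding sequence alone, so nothing past the stop codon was searched there. H2BC12, H1-2 and H4C12 are 3 of these. An FPKM divides by the length of the model, so a model that is too short or too long shifts the level.

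**Figure D5:**
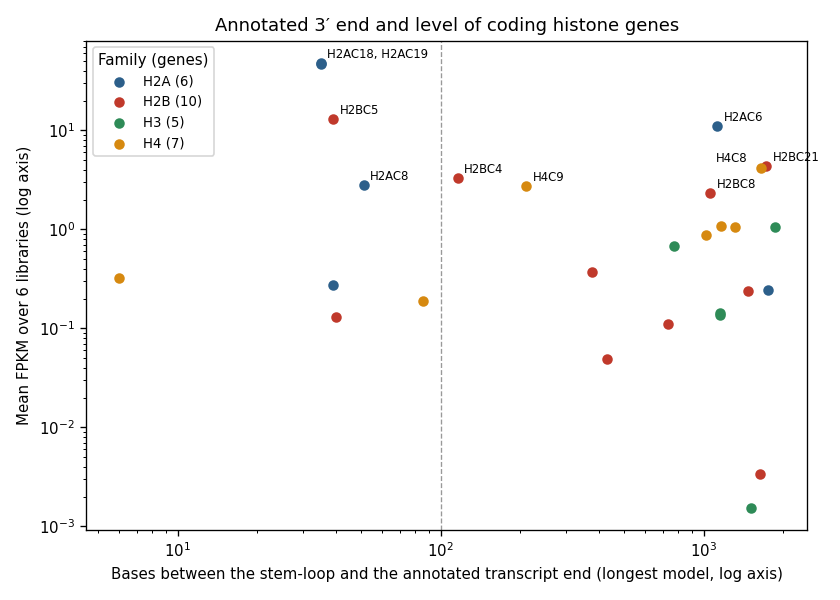
Mean FPKM over the 6 libraries (log axis) of the 28 coding genes with an annotated stem-loop, against the bases from the stem-loop to the transcript end in the longest model that holds it (log axis), coloured by family; the dashed line is at 100 bases. High and low levels are found on both sides of the line, from 48.1 FPKM for H2AC18 near the stem-loop to 0.00154 FPKM for a gene with a long model.

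A long end did not go with a high level throughout. H2AC6 (1128 bases past the stem-loop, mean 11.1 FPKM) and H2BC21 (1729 bases, 4.40 FPKM) had long models, while H2AC18 and H2AC19 (35 bases) were the highest genes with a stem-loop. H2BC5 had a model ending 39 bases past the stem-loop, and its gene also reaches on to position 26171349 of chromosome 6 in other models. Of the 20 coding genes above the filter, 13 had a poly(A) signal in the last 50 bases of a model, and of the 46 below it 9 had one. In the 24 models of coding sequence alone nothing past the stop codon was searched, and only 3 of those genes were above the filter. The counts therefore cannot separate the signal from the completeness of the models. Of 8 entries listed as known for a polyadenylated form, 7 were found by symbol. All 7, H2BC12, H1-2, H2BC5, H2AC6, H2BC21, H2BC4 and H2BC11, were above the filter. The list was chosen with earlier results of these data known. In miR-204-5p 3 were higher and 4 lower, 0 passed the test, and the median log2 fold change was -0.17.

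H2A and H2B genes often lie head to head with one stretch of DNA between their starts, so their levels within a pair can be compared. H2BC12 had a mean of 52.3 FPKM and its neighbour H2AC12, 331 bases away, 0.257 FPKM. H2BC8 and H2AC8, 283 bases apart, were close to each other at 2.32 and 2.82 FPKM. H2BC21 and H2AC20, 323 bases apart, were at 4.40 and 1.28 FPKM, and H2BC4 and H2AC6, 219 bases apart, at 3.29 and 11.1 FPKM. The H2B gene was thus the higher of some pairs and the H2A gene of others.

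The promoter of H2BC21 is shown as the DNA between such a pair, with matches to 3 motifs in capitals on either strand: the TATA box TATAAA, the CCAAT box CCAAT and the octamer ATTTGCAT, which is known in H2B promoters. It is chr1:149886633-149886932 on the minus strand (RefSeq, GRCh38.p14), from 250 bases before the start to 50 after it.
H2BC21: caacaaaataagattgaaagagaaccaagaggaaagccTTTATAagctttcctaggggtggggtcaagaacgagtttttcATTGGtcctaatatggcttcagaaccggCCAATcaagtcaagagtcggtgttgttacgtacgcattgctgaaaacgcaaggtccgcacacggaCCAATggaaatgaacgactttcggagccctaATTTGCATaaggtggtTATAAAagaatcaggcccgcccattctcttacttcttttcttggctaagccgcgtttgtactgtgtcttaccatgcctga
Of 61 coding members with a promoter in that table, 67.2% held TATAAA, 85.2% CCAAT and 42.6% ATTTGCAT, on either strand of 300 bases. Of all 27305 promoters, 11.95%, 35.7% and 1.80% did. The octamer was in 14 of 17 H2B and 11 of 15 H2A promoters, in 1 of 11 of H3 and in 0 of 12 of H4 and 0 of 6 of H1. CCAAT was in every H1, H2A, H2B and H3 promoter in the table and in 3 of 12 of H4. In a head-to-head pair the windows of both genes overlap, so these counts are not independent. A match is letters in a window and does not show that a factor binds there.

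No replacement variant passed the test between the groups. Their mean levels over the 6 libraries ran from 0.998 FPKM for H3-5 to 151 FPKM for H2AZ1. Of 12 tested, 8 were higher and 4 lower in miR-204-5p, 0 passed the test (limma, Benjamini-Hochberg), and the median log2 fold change was 0.07. H2AZ1, the variant placed at promoters, was at 148 ± 23.7 FPKM in miR-204-5p and 154 ± 21.1 FPKM in miR-NC (SD, n = 3). H2AX, phosphorylated at DNA breaks, was at 74.3 ± 26.2 and 58.4 ± 16.9 FPKM, and H3-3B, a gene for histone H3.3, at 31.6 ± 4.76 and 32.6 ± 6.46 FPKM. Their summed level was 377 to 412 FPKM across the libraries, a narrower range than that of the clustered coding genes. The list and this sum include H1-10, which is also a tested histone row.

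The machinery that processes histone messages was measured too. Of 21 genes tested, 10 were higher and 11 lower, 0 passed the test, and the median was -0.03. SLBP, which binds the stem-loop, was at 24.2 ± 3.09 FPKM in miR-204-5p and 23.4 ± 4.13 FPKM in miR-NC (SD, n = 3), a log2 fold change of 0.05 with limits of -0.40 to 0.50. NPAT was at 0.650 ± 0.349 and 0.897 ± 0.308 FPKM, and CASP8AP2, a regulator of histone transcription, at 0.383 ± 0.221 and 0.493 ± 0.312 FPKM. LSM10, of the U7 particle, was at 43.0 ± 12.9 and 34.9 ± 10.9 FPKM, and SRRT, of nuclear RNA processing, at 24.1 ± 2.77 and 24.5 ± 3.09 FPKM. CPSF3, the nuclease that cuts the message, was at 12.4, 13.8 and 11.5 FPKM against 11.5, 10.7 and 9.20 FPKM, and LSM11 of the U7 particle at 0.712 ± 0.0324 and 0.566 ± 0.0699 FPKM. CPSF3 and LSM11 were the 2 genes of this list whose groups lay apart, a share to be read against the 5.95% of all genes, and neither passed the test.

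Of the 21 chaperone genes tested 10 were higher and 11 lower, 0 passed the test, and the median was -0.01. NAP1L1, a carrier of H2A and H2B, was at 29.2 ± 4.48 and 32.4 ± 4.25 FPKM in miR-204-5p and miR-NC (SD, n = 3). DAXX, which deposits H3.3, was at 30.6 ± 2.92 and 25.9 ± 6.26 FPKM, and ASF1B, a carrier of H3 and H4, at 19.8 ± 6.03 and 17.0 ± 3.96 FPKM. SSRP1, a subunit of the FACT complex, was at 29.7, 28.8 and 19.6 FPKM against 39.4, 33.5 and 30.8 FPKM, and was the 1 gene of 21 whose groups lay apart, beside 5.95% of all genes tested. Its log2 fold change was -0.41, with limits of -0.91 to 0.09.

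Among the 33 replication genes 18 were higher, 15 lower and 0 past the test, with a median of 0.03. PCNA, the sliding clamp, was at 73.6 ± 12.4 and 69.2 ± 17.3 FPKM, TK1, thymidine kinase, at 43.2 ± 12.05 and 39.1 ± 5.21 FPKM, and FEN1, the flap nuclease, at 41.7 ± 7.63 and 34.9 ± 6.47 FPKM in miR-204-5p and miR-NC (SD, n = 3). MCM7, of the replicative helicase, was at 24.1 ± 6.95 and 29.3 ± 4.04 FPKM. The groups of these 4 genes overlapped. GINS2, also of the helicase, was the 1 gene of 33 whose groups lay apart, beside 5.95% of all genes tested. RRM2, a subunit of ribonucleotide reductase, was the 1 of 33 with an unadjusted p under 0.05 by limma, beside 2.08% of all genes. RRM2 did not pass the adjustment over all genes. It stood at 2.69 ± 0.737 and 6.07 ± 2.61 FPKM.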

How the data were processed

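The 6 libraries (3 miR-204-5p, 3 miR-NC) were made from poly(A) RNA of ARPE-19 cells, strand-marked with dUTP and read as paired ends, per the labels' protocols. The deposited table gives 1 FPKM column per library, with 0.0001 in place of 0, which was read as 0. The authors' deposited table also holds a fold ratio of the group means, its log2, and a p-value and q-value per gene, for which the sources used here name no tool. StringTie 1.3.4d, HISAT2 2.0.4, cutadapt 1.9, DESeq2, edgeR and the build GRCh38 are named, without role or order, per the submitters' processing notes. The annotation release was not given in the sources used here.

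No counts were in hand, so limma 3.58.1 was run in R 4.3.3, with a trend on intensity and no covariates, on log2(FPKM + 1), two-sided. It took the 13151 of 60612 genes that reached 0.5 FPKM in 3 or more libraries. P-values were adjusted over these genes by the Benjamini-Hochberg method at a threshold of 0.05. This scale understates changes of low genes. The limits are 95% limits of the same fit. The fit was tested on simulated data. Since FPKM values are relative, an RNA abundant in 1 library lowers the others there.

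Stem-loops, 3′ UTRs and transcript ends were read from GENCODE 29 by Ensembl identifier, microRNA and promoters from RefSeq. Stem-loops are a 6-base arm, a 4-base loop and a second arm in annotated transcripts. The members and lists were chosen with earlier results of these data known. Named were all tested members, the 5 highest below the filter, the 3 members with the smallest unadjusted p each way, up to 4 genes of highest level per list, and SLBP, NPAT and CASP8AP2. Any other gene named was chosen after its values were seen. Of 156 list entries, 2 had no row in the table. Depth was estimated from the step of 1 read pair in FPKM times length and is rough. Alternatives were the pseudocount, filters, 3 scalings, leaving out each library, library weights, a replicate block and narrower definitions of the members. Python 3.11.15 was used.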

Additional observations from a re-analysis of the deposited data

How the results depend on the processing

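The number of histone members past the threshold was 0 under every alternative run, and the number over all genes was 0 except without miR-204-5p replicate 2, where it was 3, so the range on leaving out a library was 0 to 3. The members' median log2 fold change, 0.01, ran from -0.09 to 0.24 on leaving out a library and was 0.16 with library weights, 0.07 with no filter, and -0.02 at a filter of 1 FPKM. Chosen after seeing the data, the medians without H1-10 and H1-10-AS1 and without pseudogenes were -0.02 and 0.06. Of 357 values of single genes under alternatives, 328 kept their sign and 29 changed it, in 16 of 26 genes, 26 of them on leaving out a library and 0 under a change of scaling, pseudocount or filter. None of these genes passed the test. A pseudocount of 0.1 moved values of low genes most, such as H2BC11 from 0.44 to 1.04, H2AC20 from 0.37 to 0.72 and H2BC20P from -0.42 to -0.74.

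On leaving out each library the log2 fold changes ran from -0.41 to 0.43 for H2AC19, -0.40 to 0.44 for H2AC18, -0.24 to 0.30 for H1-2, -0.20 to 0.37 for H2AC8, -0.46 to 0.12 for H2BC19P, -0.37 to 0.0718 for H2BC4, -0.41 to 0.0138 for H2AC6, -0.0316 to 0.67 for H4C12, -0.0224 to 0.32 for H4C14, -0.0595 to 0.24 for H4C9, -0.12 to 0.13 for H2BC8, -0.0788 to 0.22 for H1-10, -0.22 to 0.00710 for H3C6, -0.21 to 0.0260 for H3C10, -0.0512 to 0.18 for SLBP and -0.29 to 0.0204 for CASP8AP2. With library weights H2AC19 came to 0.16, H2AC18 to 0.18 and H2BC8 to -0.12. Apart from fewer samples in each fit, the cause was not tested.

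Same-numbered libraries deviated together with correlations of 0.04, 0.55 and 0.52 for replicates 1 to 3. Differently numbered libraries gave -0.61 to 0.32, so replicates 2 and 3 tracked across the groups and replicate 1 did not. The main fit did not pair the samples, and whether the numbers mark a shared batch was not tested. In the fit with a replicate block 0 genes and 0 members passed the threshold, and the members' median was 0.01. In that fit 941 of the 13151 genes tested had an unadjusted p under 0.05 by limma, 3 of the 23 tested members among them. Without the block these counts were 273 genes and 0 members. With 23 members, 3 is a small count and is not read as a result about the histone genes. A count test was not run, since the deposited unit is FPKM. Depth limits the low members most, as their values rest on a few read pairs.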
